A study of Mus musculus with 3 samples.

Results

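The cells described here are the C1q- or Lyz2-positive myeloid cells of mouse small intestinal crypt preparations, 141 of the 5528 cells kept from 3 single-cell RNA libraries. A barcode was a member when it held at least 500 genes and 1000 unique molecular identifiers (UMIs), at most 20% mitochondrial UMIs, no Cd3e UMI, fewer than 5 Epcam UMIs, at least 1 UMI of Ptprc, Tyrobp or Fcer1g, and either at least 3 UMIs of C1qa, C1qb and C1qc together or at least 5 of Lyz2. The rule found 11 members among 1595 kept cells of the control library, 91 among 2036 of the KO library and 39 among 1897 of the rescue library. All animals carried the inducible recombinase allele Olfm4-IRES-eGFPCreERT2, which follows the expression of Olfm4, a gene of crypt base stem cells. The control was CDC42+/flox, so it carried 1 floxed copy, the KO was CDC42flox/flox, and the rescue was CDC42flox/flox with Yapflox/flox and Tazflox/+. The mice were C57BL/6 adults of 2 to 3 months. Crypts were dissociated for 1 hour in 3x TrypLE, and 10x Genomics 3' version 3 libraries were made from 4000 to 5000 harvested cells. Each genotype was 1 library, so no test between genotypes was possible. The induction scheme, the deleted exons and the number of animals in a library are not given in the sources used here.

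C1q is the recognition protein of the classical complement pathway, built from chains encoded by C1qa, C1qb and C1qc, and resident tissue macrophages are a main source of it. In the intestine, macrophages are largely renewed from blood monocytes that enter the wall, lose monocyte markers such as Ly6c2 and gain MHC class II, with which they present antigen to CD4 T cells. Lyz2 encodes the lysozyme of myeloid cells, whereas Lyz1 is the lysozyme of Paneth cells. Apoe encodes a carrier of cholesterol and other lipids that many macrophages secrete.

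The C1q genes lie side by side on the minus strand of chromosome 4 in the order C1qb (chr4:136880129-136886187), C1qc (chr4:136889804-136893065) and C1qa (chr4:136895917-136898803), a span of 18.7 kb in GRCm38 with the GENCODE vM21 annotation. The targeted gene Cdc42 (chr4:137319696-137357720) lies 421 kb away on the same chromosome. Lyz2 is at chr10:117277331-117282321, Apoe at chr7:19696109-19699188 and Fn1, which divides the members below, at chr1:71585520-71653200, all on the minus strand. The promoters of 3 rule genes are shown because these genes chose the cells. They are the 250 bases before the start site given by RefSeq on GRCm38.p6, read on the minus strand. They lie at chr4:136886201-136886450 for C1qb, chr4:136892915-136893164 for C1qc and chr10:117282273-117282522 for Lyz2. The RefSeq start sites differ from the GENCODE gene ends above, so part of the C1qc and Lyz2 windows lies inside the genes as given there. C1qa had no match in the sequence table. Capitals mark GAGGAA or its reverse complement TTCCTC, the core bound by the myeloid factor PU.1 (Spi1).
C1qb: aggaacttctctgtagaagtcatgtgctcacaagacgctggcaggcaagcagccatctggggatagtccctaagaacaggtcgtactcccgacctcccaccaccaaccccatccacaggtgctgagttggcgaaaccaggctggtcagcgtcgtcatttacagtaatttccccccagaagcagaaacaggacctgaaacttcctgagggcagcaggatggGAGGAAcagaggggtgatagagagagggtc
C1qc: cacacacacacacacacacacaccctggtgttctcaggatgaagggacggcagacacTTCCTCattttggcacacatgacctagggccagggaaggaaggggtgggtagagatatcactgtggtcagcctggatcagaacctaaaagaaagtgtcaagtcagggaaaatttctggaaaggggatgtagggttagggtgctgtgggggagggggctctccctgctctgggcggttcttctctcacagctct
Lyz2: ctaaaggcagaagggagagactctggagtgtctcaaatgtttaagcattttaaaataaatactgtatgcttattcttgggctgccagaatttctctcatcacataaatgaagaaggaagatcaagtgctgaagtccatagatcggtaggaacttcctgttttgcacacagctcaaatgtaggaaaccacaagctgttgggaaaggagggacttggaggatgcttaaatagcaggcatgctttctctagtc

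The C1qb promoter held GAGGAA at bases -30 to -25, counted from the RefSeq start site, and the C1qc promoter held TTCCTC at -193 to -188. Neither run of letters is in the Lyz2 window, which says nothing of the factor there. Both strands were searched. Among 32851 promoters of this length, 23.25% held the motif, so a match is a description of the letters and not of a bound site.

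The label was checked against the markers. Of the 141 members, 95 met the C1q condition (6 control, 64 KO and 25 rescue) and 46 met the Lyz2 condition alone (5, 27 and 14). A label of C1q-positive macrophages therefore fits 95 of the cells, and the whole set is called C1q- or Lyz2-positive myeloid cells here. In the C1q arm all 3 chains were detected in 5 of 6 cells in the control library, 57 of 64 in the KO library and 21 of 25 in the rescue library, and each other cell held 2 of them. The summed C1q count per C1q-arm cell ran from 8 to 27 (median 21.5) in the control library, from 4 to 483 (median 64) in the KO library and from 4 to 380 (median 16) in the rescue library. Few cells lay near the limits of the rule. Cells just outside, with 1 or 2 C1q UMIs and Lyz2 under 5, numbered 0 in the control library, 3 in the KO library and 3 in the rescue library. Just inside, with 3 to 5, there were 0, 1 and 1. With fewer than 3 C1q UMIs, 0 control, 9 KO and 2 rescue cells held 1 to 4 Lyz2 UMIs, and 0, 2 and 2 held 5 to 8. The Cd3e limit alone removed 2 control, 3 KO and 0 rescue cells, and the Epcam limit alone removed 2, 6 and 1.

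The members were unevenly deep. Their UMIs summed to 65906 in the control library, 1168166 in the KO library and 300737 in the rescue library, and the median per cell was 1965, 12249 and 3401. In the control library 4 cells held 82.6% of the members' UMIs. The T cells used for comparison (Ptprc and Cd3e both detected, 914, 186 and 741 cells) had medians of 5209.5, 4671 and 5056 UMIs. Levels are UMIs per 1000000 UMIs of the pooled cells (CPM) with exact Poisson 95% intervals in parentheses, and folds carry exact conditional binomial 95% intervals. These cover counting error only. A gene is said to be called when the levels differed at least 2-fold with an interval that excludes 1, among genes with at least 20 UMIs. No more than 11 barcodes were shared by any pair of libraries, and no member's barcode was. Sex-linked genes separated the libraries: Xist, the X-inactivation RNA, was detected in 0 of 11, 73 of 91 and 9 of 39 members, and Y-linked genes in 4, 0 and 8. Among T cells, Xist was found in 0, 175 and 569 cells and Y-linked genes in 783, 0 and 128. The genotype and the sex of the animals cannot be told apart between control and KO, and the rescue library held cells of both kinds.

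Cdc42, the targeted gene, was at 683 (498 to 914), 777 (728 to 829.5) and 964 (856 to 1082) CPM in the control, KO and rescue members. The rescue to KO ratio was 1.24 (1.08 to 1.42) and the KO to control ratio 1.14 (0.844 to 1.57), neither called. In T cells the level was 414, 446 and 451 CPM. In Epcam-positive cells without Ptprc it was 249, 384 and 381 CPM, so the 3' count does not check the labels, and whether it lies inside the deleted part is not given. Olfm4, which drives the recombinase, had no UMI in the members, which allows a share of cells with a UMI of up to 28.5%, 3.97% and 9.03% in the control, KO and rescue libraries. Yap1 and Wwtr1, the gene of TAZ, had at most 2 UMIs in the members of any library.

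Members made up 0.690% (exact binomial 95% interval 0.345 to 1.23) of kept cells in the control library, 4.47% (3.61 to 5.46) in the KO library and 2.06% (1.47 to 2.80) in the rescue library. The intervals did not overlap each other. Without any member that held an Epcam UMI the shares were 0.439% (0.177 to 0.902), 2.16% (1.57 to 2.89) and 1.58% (1.07 to 2.25), and the KO and rescue intervals then overlapped. Since libraries differed in how many epithelial cells they held, the share was also taken over kept cells with fewer than 5 Epcam UMIs, where it was 0.997% (0.499 to 1.78), 15.2% (12.5 to 18.4) and 3.33% (2.38 to 4.52). Set against T cells alone, members were 1.19% (0.595 to 2.12), 32.9% (27.4 to 38.7) and 5.0% (3.58 to 6.77) of both together. The order of the libraries was the same with each denominator, control lowest and KO highest. The KO library also had the fewest T cells, 186 against 914 and 741, so each share of non-epithelial cells moves with T cell recovery. The C1q arm alone was 0.376% (0.138 to 0.817), 3.14% (2.43 to 4.0) and 1.32% (0.855 to 1.94) of kept cells, and the Lyz2-only arm 0.313% (0.102 to 0.730), 1.33% (0.876 to 1.92) and 0.738% (0.404 to 1.24). With 1 library per genotype, differences between genotypes, animals and preparations cannot be told apart.

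**Figure D1:**
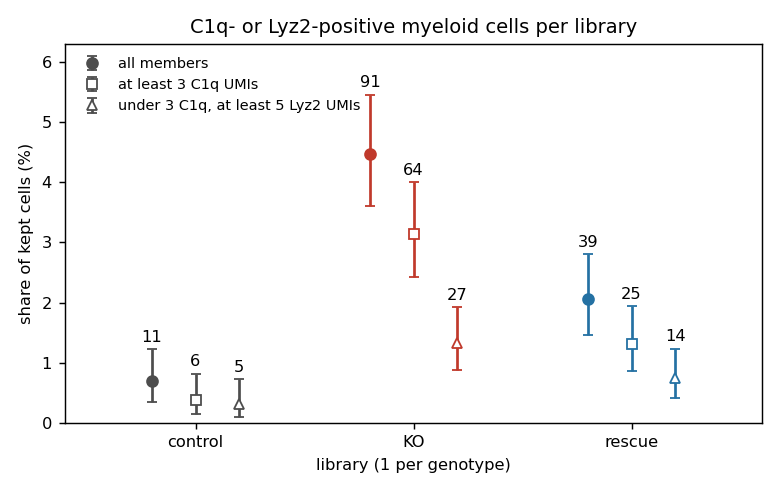
Share of kept cells in percent for all members (filled circles), the C1q arm (open squares) and the Lyz2-only arm (open triangles) of each library, with exact binomial 95% intervals as bars and the number of cells above them. All members are at 4.47% in the KO library against 0.690% in the control and 2.06% in the rescue library.

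The members fell into cells rich in MHC class II transcripts and cells with fibronectin (Fn1) transcripts. This division, and its limits, were chosen after the values had been seen, so the genes that define it are described and not tested. MHC class II cells had at least 1% of their UMIs in Cd74, H2-Aa, H2-Ab1 and H2-Eb1, which encode the invariant chain and MHC class II chains, and fewer than 2 Fn1 UMIs. They numbered 7 of 11 control, 12 of 91 KO and 16 of 39 rescue members, and without the 20% mitochondrial limit they would number 7, 28 and 22. Fn1 cells had at least 2 Fn1 UMIs and less than 1% of those MHC class II transcripts. They numbered 3 of 11, 65 of 91 and 16 of 39. Cells with both features numbered 0, 5 and 2, cells with neither 0, 8 and 3, and cells with at least 1% of their UMIs in S100a8 and S100a9, which mark neutrophils and monocytes, 1, 1 and 2.

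As a share of kept cells, Fn1 cells were 0.188% (0.0388 to 0.549) in the control library, 3.19% (2.47 to 4.05) in the KO library and 0.843% (0.483 to 1.37) in the rescue library. The KO interval lay above the other intervals. The MHC class II cells were 0.439% (0.177 to 0.902), 0.589% (0.305 to 1.03) and 0.843% (0.483 to 1.37), intervals that overlapped in all 3 libraries. Without the mitochondrial limit, over all cells with 500 genes and 1000 UMIs, MHC class II cells were 0.152% (0.0612 to 0.313), 0.750% (0.499 to 1.08) and 0.762% (0.478 to 1.15), so the control interval then lay below the others, and Fn1 cells were 0.0652% (0.0135 to 0.191), 1.77% (1.37 to 2.24) and 0.554% (0.317 to 0.898). Within the limit most of the excess of members in the KO library was in Fn1 cells. In the C1q arm the classes divided the libraries. All 6 control cells were MHC class II cells, 50 of 64 KO cells were Fn1 cells, and of the 25 rescue cells 15 were MHC class II cells and 7 Fn1 cells.

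**Figure D2:**
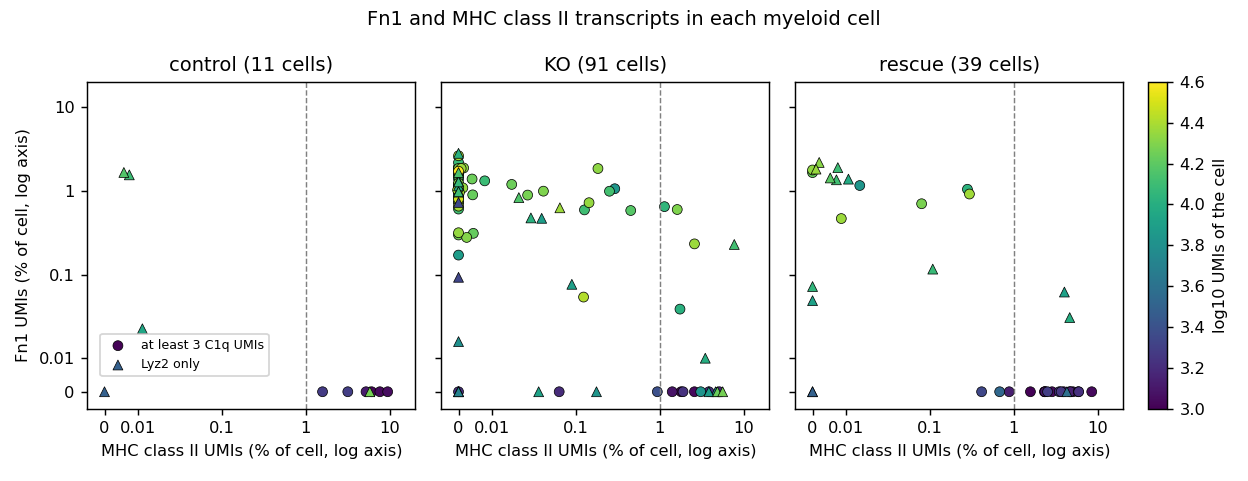
Each member by the percentage of its UMIs in Fn1 (y axis) and in the MHC class II genes (x axis), both on log axes with 0 drawn at the left or lower end, one panel per library; circles have at least 3 C1q UMIs, triangles were chosen on Lyz2 alone, colour is the log10 number of UMIs, and the dashed line is 1% MHC class II. Cells with Fn1 lie mostly to the left of the line, and the KO panel holds 65 Fn1 cells against 3 and 16.

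The classes differed in depth and in mitochondrial share. Fn1 cells had medians of 12586, 14832 and 14192 UMIs in the control, KO and rescue libraries, and mitochondrial medians of 3.96%, 5.96% and 6.06%. MHC class II cells of the C1q arm had medians of 1222, 1473 and 1369 UMIs, close to the 1000 required, and 10.0%, 17.1% and 13.2% mitochondrial UMIs. Whether the lower depth limits which MHC class II cells were kept was not tested. When each cell was thinned to 1000 UMIs, 2 of 3 control, 61 of 65 KO and 13 of 16 rescue Fn1 cells stayed in their class, as did 7 of 7, 12 of 12 and 16 of 16 MHC class II cells. The Fn1 cells of the KO and rescue libraries had close median depths, but ranged from 2153 to 39363 UMIs in the KO library, with 6 cells under 5000, and from 6833 to 23711 in the rescue library, with none.

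**Figure D3:**
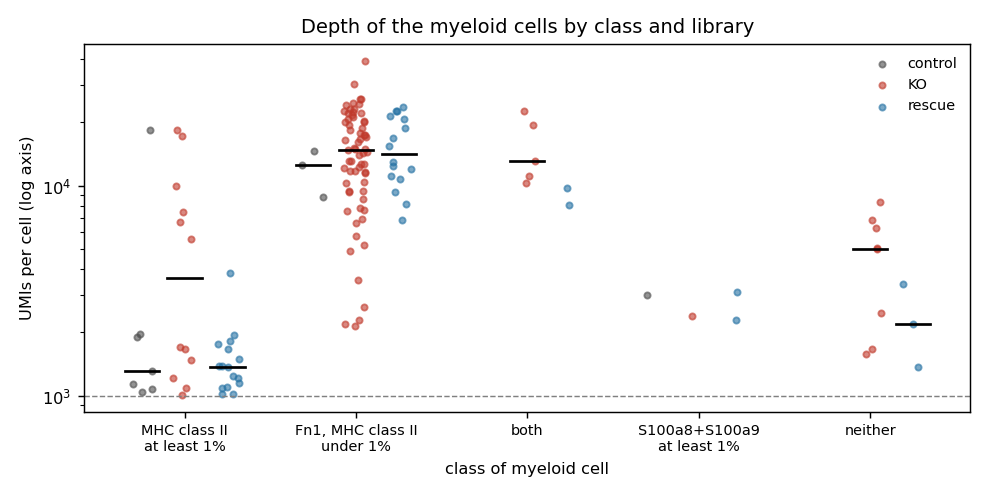
UMIs per member on a log axis, by class and library, with bars at the medians of groups of at least 3 cells and a dashed line at the 1000 UMIs required. MHC class II cells, both arms together, have medians of 1307, 3641 and 1375 UMIs in the control, KO and rescue libraries, and Fn1 cells 12586, 14832 and 14192.

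In the MHC class II cells Fn1, Arg1 and Spp1 had no UMI in any library, apart from 1 Fn1 UMI in a KO cell. The class admits fewer than 2 Fn1 UMIs, so the Fn1 value follows from its definition. Cells with both features are outside it. The 5 such KO cells held 62, 70, 2, 46 and 22 Spp1 UMIs and 0, 4, 0, 8 and 5 Arg1 UMIs. The 2 such rescue cells held 0 of either. Arg1 encodes arginase 1, and Spp1 osteopontin, a secreted matrix protein. The 3 C1q genes summed to 4401 CPM over 7 control cells, 1223 CPM over 12 KO cells and 9611 CPM over 16 rescue cells. C1q was detected in 7 of 7, 8 of 12 and 15 of 16 of them, so the KO cells included Lyz2-only cells without C1q. In the control library 1 Lyz2-only cell held 18384 of the 26810 UMIs, with 1 C1q UMI and no Apoe UMI. Over the C1q arm alone, 6, 7 and 15 cells, the C1q genes summed to 13886 (11484 to 16642), 5982 (4804 to 7361) and 11389.5 (9979.8 to 12943) CPM, so the control level was no longer below the rescue level. Apoe was at 2313, 8997 and 15583 CPM, and over the C1q arm alone at 7358 (5641 to 9433), 19559 (17376 to 21940.4) and 18466 (16658 to 20416) CPM. Cd74 was at 26371, 20250.1 and 22372 CPM, and the median cell gave 5.77%, 3.65% and 3.78% of its UMIs to the MHC class II genes. Over the C1q arm alone Cd74 was at 28839 (25327 to 32702.5), 14384 (12521 to 16445) and 21955 (19980 to 24073) CPM. The KO interval then lay below the others. In the KO library 5 Lyz2-only cells held 1276 of the 1490 Cd74 UMIs of the class. Pooled levels of this class rest on 26810, 73580 and 24450 UMIs.

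In the Fn1 cells, Fn1 counts per cell were 2, 195 and 242 in the 3 control cells, 2 to 674 (median 148) in the KO and 4 to 453 (median 153.5) in the rescue cells. Arg1 was at 3632 CPM (3037 to 4310.03), 2476 CPM (2378 to 2576) and 2333 CPM (2146 to 2531) in the control, KO and rescue Fn1 cells, levels that lay close together in the KO and rescue libraries. Spp1 was at 471 CPM (275 to 755), 3799.6 CPM (3678 to 3924) and 3852 CPM (3611 to 4106). C1q was detected in 0 of 3 Fn1 cells of the control library, 53 of 65 of the KO library and 7 of 16 of the rescue library, so in the KO library most Fn1 cells were also C1q-positive.

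Members were next compared with the T cells of the same library. Since the members were chosen by their RNA, this comparison describes the cells and supports nothing further. Over all genes, 8.01% of 9897 were called higher and 5.71% lower in the control members, 18.1% and 19.4% of 8711 in the KO, and 11.9% and 15.5% of 10391 in the rescue members. Macrophage identity genes outside the rule were called higher in 12 of 16 measured in the control library, 25 of 26 in the KO library and 22 of 25 in the rescue library, with none lower. Spi1, which encodes PU.1, was at 531, 402 and 485 CPM in the members and at 0.592, 0 and 0 CPM in T cells. Cd14, the lipopolysaccharide co-receptor, was at 1047, 1088 and 1114 CPM in members and 1.18, 0 and 4.72 CPM in T cells. Sirpa, an inhibitory receptor for CD47, was at 364, 390.4 and 419 CPM in members and 0.790, 0 and 0.590 CPM in T cells. None of the 3 was called between the members of any pair of libraries. With every cell weighing the same, genes were counted on the 2-fold rule alone, without an interval, so those counts are not calls. They were 1545 higher and 5751 lower in the control, against 793 and 565 called. In the rescue library they were 1716 and 4406, against 1237 and 1612 called. The parts of the weighting and of the dropped interval in this change were not separated.

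Genes of the functions of phagocytes were also higher in members than in T cells. Of the complement and opsonin list, 7 of 8 measured genes were called higher in the control library, 13 of 14 in the KO library and 10 of 12 in the rescue members. Of the lysosome and phagocytosis list 19 of 24, 29 of 30 and 24 of 26 were, of the lipid handling list 7 of 14, 17 of 18 and 13 of 15, and of the MHC class II and costimulation list 11 of 13, 12 of 14 and 10 of 12. Cybb, the catalytic subunit of the phagocyte NADPH oxidase, was at 1578, 1599.9 and 988 CPM in members and 0.987, 0.855 and 0.197 CPM in T cells. Alox5ap, needed for leukotriene synthesis, was at 425, 853 and 1034 CPM in members and 0.395, 6.84 and 0 CPM in T cells. Clec4e, which encodes the pattern receptor Mincle, was at 698, 429 and 658 CPM in members and had no UMI in T cells. Of the chemokine list 12 of 14, 16 of 18 and 16 of 18 were higher and 1 lower in each library. Of the cytokine list 17 of 20, 24 of 28 and 19 of 23 were higher. Il1b and Cxcl2, an alarm cytokine and a neutrophil attractant, had 0 UMIs in T cells of every library for Il1b and at most 3.42 CPM for Cxcl2. In members, Il1b was at 2716, 1162 and 2364 CPM and Cxcl2 at 6828, 3867 and 5457 CPM.

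The T cell list was called lower in 16 of 20 genes in the control and 20 of 20 in the KO and rescue members. Its genes Cd247, Trbc1, Cd8b1, Skap1 and Themis had no UMI in any member, and its summed level was 137, 28.2 and 83.1 CPM against 55600, 45082 and 48406 CPM in T cells. Several defining markers of other cell types were at 0 in the members as well. No UMI was found of Pax5 and Ighd of B cells, Jchain, Mzb1 and Derl3 of plasma cells, Ngp, Retnlg, Ly6g, Elane and Mpo of neutrophils, Cpa3 of mast cells, Prg2 and Epx of eosinophils, Col1a1, Lum, Pdgfra and Myh11 of stroma or Kdr, Cldn5, Plvap and Prox1 of endothelium. Other genes of these lists were detected. The plasma cell list summed to 273, 239 and 339 CPM in members and 297, 285 and 306 CPM in T cells. The endothelial list summed to 45.5, 58.2 and 0 CPM in members and the eosinophil list to 0, 34.2 and 23.3 CPM. In KO members 2 of 4 measured plasma cell genes were called higher than in T cells and 2 lower. Of 2 endothelial genes 1 was higher and 1 lower, and the 1 eosinophil gene measured was higher. Dendritic cell markers were also present. That list had 8, 3 and 6 of its 15 genes at 0 in the control, KO and rescue members and summed to 3065, 3246 and 1942 CPM, most of it Cst3. The deepest control member held 34 UMIs of Ccr7, a homing receptor of migrating dendritic cells, and 4 of Flt3, a growth factor receptor of dendritic cells. Flt3 was also found in 3 KO members, Xcr1 in 3 KO and 1 rescue member, and Cd209a in 2 rescue members. The part of such cells in the results was not tested. The neutrophil list summed to 4036 CPM in the control library, 543 in the KO library and 1606 in the rescue members, most of it S100a8 and S100a9. The goblet list, which shares Ccl6 and Ccl9 with the chemokine list, summed to 2064, 4379.5 and 9031 CPM. The epithelial list summed to 2064, 2475 and 2308 CPM and the Paneth list to 2094, 487 and 569 CPM in the members, against 2155, 19396 and 8134 CPM and 6739, 35.9 and 18145 CPM in T cells. Epcam was detected in 36.4%, 51.6% and 23.1% of members and in 62.8%, 62.9% and 46.0% of T cells.

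**Figure D4:**
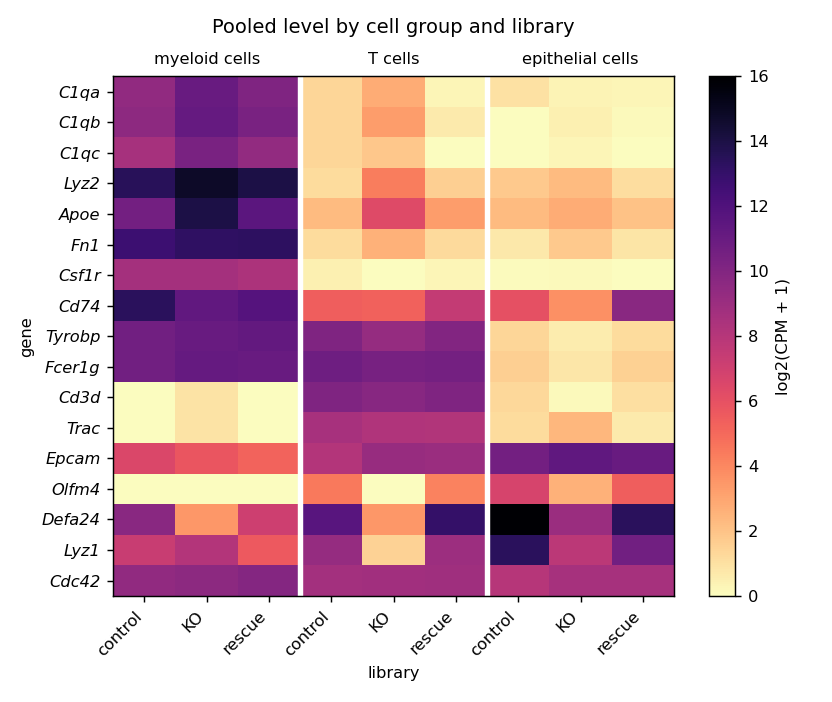
Heatmap of log2(CPM + 1) for rule genes and markers in the pooled myeloid cells, T cells and epithelial cells of the control, KO and rescue libraries. C1qa is at 668, 2129.8 and 1087 CPM in the control, KO and rescue members against 1.58, 5.98 and 0.197 CPM in T cells, while Tyrobp and Fcer1g are also high in T cells and Cdc42 was detected in every column.

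The rule genes were also found at low levels outside the members. A UMI of any C1q gene or Lyz2 was found in 0.438% (0.119 to 1.12), 7.53% (4.18 to 12.3) and 1.75% (0.937 to 2.98) of T cells. In the deeper epithelial cells it was found in 7.56% (5.29 to 10.4), 18.7% (16.7 to 20.9) and 7.87% (5.93 to 10.2), at median depths of 38265, 43319 and 48002 UMIs. The highest share stood in the KO library, which held the most members. Lyz2, with a median of 16, 219 and 12 UMIs per member, reached a mean of 0.124 UMIs per T cell in the KO library. The Paneth alpha-defensin Defa24 had a median of 5, 0 and 1 UMIs in members and 4, 0 and 1 in T cells, nearly the same in both.

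The rescue and KO libraries were compared in all members and in the Fn1 cells, 16 rescue and 65 KO cells, with the latter as the lead because their median depths were close. The Fn1 cells differed in arm, with 50 of 65 KO and 7 of 16 rescue cells in the C1q arm. The Fn1 cell values below were not split by arm, so the part of this difference in them was not tested. In the Fn1 cells 3.91% of 5674 genes were called higher in the rescue library and 9.52% lower, with a median log2 ratio over all genes of -0.09. In all members 3.7% of 6188 were called higher and 9.21% lower, 229 and 570 genes. With every cell weighing the same, and counted on the 2-fold rule alone without an interval, these were 332 and 1761. Of the genes called lower in all members, 432 were also called lower in the Fn1 cells, 75.8% of the first list and 80.0% of the second. Of those called higher, 161 were shared, 70.3% and 72.5%. The Xist and Y-linked genes divided the rescue Fn1 cells further: 6 held Xist only, 7 Y-linked UMIs only, 1 both and 2 neither, against 59, 0, 0 and 6 of the KO cells. Beside the main results, values are therefore given for the 59 KO and 6 rescue cells with Xist only. In this comparison, added after the data had been seen, 4.2% of 5595 genes were called higher and 4.59% lower.

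Lysosomal genes stood lower in the rescue Fn1 cells. Of 29 measured genes of the lysosome and phagocytosis list, 16 were called lower and 1 higher, with a median log2 ratio of -1.05. In all members it was also 16 and 1 of 29, with a median of -1.15, and in the cells with Xist 9 and 1 of 29, with a median of -0.32. Ctsd, the aspartic protease cathepsin D, was at 7367 CPM (7198 to 7539) in the KO cells, with a UMI in 64 of 65, and 2048 CPM (1873 to 2235) in the rescue cells, with a UMI in 14 of 16, 3.60-fold lower (3.29 to 3.94). In the 3 control cells it was at 749 CPM (493 to 1089). By sex-linked genes it was at 7367 (7196 to 7542) CPM in the 59 KO cells with Xist, 2766 (2422 to 3145) CPM in the 6 rescue cells with Xist and 1731 (1509 to 1975) CPM in the 7 rescue cells with Y-linked UMIs. Both kinds of rescue cells were below the KO cells, also without the cell with most Ctsd UMIs of each kind, at 1594 CPM (1294 to 1942) and 1533 CPM (1306 to 1788). Ctsl, cathepsin L, was at 2488 CPM (2390.2 to 2589) in KO and 788 CPM (681 to 907) in rescue cells, 3.16-fold lower (2.73 to 3.67), with 1401 CPM in the rescue cells with Xist and 441 CPM in those with Y-linked UMIs. Ctss, cathepsin S, which trims the invariant chain of MHC class II, was at 3387 CPM (3272 to 3504) and 1414 CPM (1269 to 1571), 2.39-fold lower (2.14 to 2.68), and at 2386 CPM in the rescue cells with Xist against 3386 CPM in the KO cells with Xist, a smaller difference. Cd63, a tetraspanin of late endosomes, was at 946 CPM (886 to 1008) and 187 CPM (137 to 249), 5.06-fold lower (3.76 to 6.96). Ctsb and Psap, a further cathepsin and the precursor of the saposins, were not called: Ctsb was at 3587 and 1971 CPM and Psap at 3967 and 2089 CPM. The summed list was at 32924 CPM in KO and 15954 CPM in rescue Fn1 cells. It was also lower in the rescue library in T cells, at 2107 CPM in KO and 1463 CPM in rescue, and in epithelial cells, at 3547 and 1974 CPM. Epithelial markers moved in the same direction in the Fn1 cells, with 10 of 18 called lower and 2 higher and a summed level of 2191 CPM in KO and 841 CPM in rescue cells. Of 8 measured goblet genes 5 were called lower and 1 higher. The summed goblet list, which holds Ccl6 and Ccl9, was higher in the rescue cells, at 4873 CPM in KO and 10716 CPM in rescue. The part of epithelial and goblet RNA in the lower lysosomal, lipid and iron levels was not tested.

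Genes of lipid uptake and handling stood lower with them. Of 18 measured, 12 were called lower and none higher in the Fn1 cells (median log2 ratio -1.39), 12 and none in all members (median -1.48), and 7 and none in the cells with Xist (median -0.77). Apoe was at 16476 CPM (16223 to 16732) in the KO cells, with a UMI in 63 of 65, and 1975 CPM (1803 to 2159) in the rescue cells, with a UMI in 11 of 16, 8.34-fold lower (7.62 to 9.15), and 1 rescue cell gave 39.3% of the rescue UMIs. It was at 16671 (16413 to 16932) CPM in the 59 KO cells with Xist, 3656 (3259 to 4088) CPM in the 6 rescue cells with Xist and 1133 (955 to 1334) CPM in the 7 rescue cells with Y-linked UMIs. Gpnmb, a glycoprotein of lipid-laden macrophages, was at 512 CPM (468 to 559) in the KO cells, with a UMI in 26 of 65, and 4.06 CPM (0.103 to 22.6) in the rescue cells, with a UMI in 1 of 16. With 1 UMI in the rescue cells the ratio was 126-fold lower (22.5 to 4988). Fabp4, a fatty acid binding protein, was detected in 33 of 65 KO and 1 of 16 rescue cells, at 197 CPM (170.4 to 227) and 4.06 CPM (0.103 to 22.6), 48.5-fold lower (8.61 to 1927). Cd36, a scavenger receptor and fatty acid transporter, was at 1075 CPM (1011 to 1142) and 410.4 CPM (334 to 499), 2.62-fold lower (2.13 to 3.25). Lpl, lipoprotein lipase, was at 964 CPM (903 to 1027) and 492 CPM (408 to 588), and Plin2, a lipid droplet coat protein, at 1435 CPM (1361 to 1512) and 955 CPM (837 to 1085), both short of a 2-fold difference. Gpnmb and Fabp4 were named because they were among the genes most lowered between all members of these libraries, so the size of their folds follows from that choice. The summed list was at 26541 CPM in KO and 7051 CPM in rescue Fn1 cells, and was also lower in the rescue library in T cells, at 1710.2 CPM in KO and 659 CPM in rescue, and in epithelial cells, at 3559.9 and 625 CPM. Without the cell with most Apoe UMIs of each kind, Apoe was at 1903 CPM (1574 to 2280.2) in the rescue cells with Xist and 849.6 CPM (685 to 1042) in those with Y-linked UMIs.

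Of the measured genes of the macrophage identity list, 8 of 25 were called lower and 2 higher in the Fn1 cells (median -0.21), 8 and 3 of 26 in all members (median -0.20), and 4 and 2 of 25 in the cells with Xist (median -0.07). Folr2 and Mrc1, receptors of resident macrophages on that list, were not called, at 140.04 and 93.5 CPM and 34.8 and 36.6 CPM. They were picked after their values were seen. Marco, a scavenger receptor for bacteria, was at 349.6 CPM (314 to 389) in KO Fn1 cells, with a UMI in 14 of 65, and had none in the rescue cells; it was at least 28.7-fold lower, taking 3 UMIs as the floor over the rescue cells. Vsig4, a complement receptor of resident macrophages, was found in 3 of 65 KO cells and no rescue cell, and Lyve1, a hyaluronan receptor, in 8 of 65 and none. Few KO cells carried either gene. Cd5l, a secreted protein of tissue macrophages, was at 316 CPM (282 to 353) in KO cells, with a UMI in 16 of 65, and 89.4 CPM (56.0 to 135) in rescue cells, with a UMI in 2 of 16. Trem2, a lipid-sensing receptor, and Adgre1, which encodes F4/80, were also picked from that list after their values were seen. Trem2 was at 589 CPM (542 to 639) and 171 CPM (123 to 231), 3.45-fold lower (2.52 to 4.84), and Adgre1 at 303 CPM (269 to 339) and 126 CPM (85.6 to 179), 2.40-fold lower (1.66 to 3.60). Csf1r, the receptor for the macrophage growth factor CSF1, also picked afterwards, was at 411 CPM (372 to 453) and 317 CPM (251 to 396), and was not called.

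Fewer complement genes were called. The C1q genes helped choose the cells, so their levels are a description. C1qa was at 2282 CPM (2188 to 2378) in the KO cells, with a UMI in 48 of 65, and 922 CPM (806 to 1051) in the rescue cells, with a UMI in 6 of 16, and 1 rescue cell held 68.7% of the rescue UMIs. In the cells with Xist C1qa was at 2280.4 (2186 to 2378) CPM in KO and 2339 (2024 to 2689) CPM in rescue cells, but 1 of the 6 rescue cells held 79.2% of those UMIs, and without it the level was 667 CPM (478 to 904). In the rescue cells with Y-linked UMIs it was at 236 (159 to 337) CPM, with 93.3% of the UMIs in 1 cell. A C1q UMI was found in 48 of 59 KO cells with Xist, 4 of 6 rescue cells with Xist and 3 of 7 with Y-linked UMIs. Of 14 complement and opsonin genes, 5 were called lower and 1 higher in the Fn1 cells (median -0.39), 3 and 0 in all members (median -0.45), and 2 and 1 in the cells with Xist (median -0.09). The receptor of C5a, C5ar1, was at 329 and 354 CPM and the integrin chain Itgb2 at 957 and 671 CPM, neither called. The Lyz2 level, also used by the rule, was 29974 CPM (29632 to 30319) in KO and 17994 CPM (17468 to 18532) in rescue Fn1 cells.

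Ferritin genes were lower as well. Fth1 and Ftl1, the heavy and light chains of the iron store ferritin, were at 15413 CPM (15168 to 15661) and 13577 CPM (13347 to 13809.9) in KO and 4409 CPM (4151 to 4679) and 5746 CPM (5450.4 to 6054) in rescue Fn1 cells, 3.50-fold lower (3.29 to 3.72) and 2.36-fold lower (2.24 to 2.5). In the 3 control cells they were at 16054 and 14778 CPM, near the KO level. In the rescue cells with Xist they were at 7907 and 8061 CPM, and in those with Y-linked UMIs at 2627 and 4657 CPM. Of the 8 iron genes measured, 4 were called lower in the Fn1 cells and none higher, whereas none was called in all members (median -0.42), and in the cells with Xist 0 were lower and 1 higher. Ferritin has many pseudogenes, and how reads shared with them were counted is not given, so these levels are uncertain. The summed iron list was also lower in the rescue library in T cells, at 7099 CPM in KO and 4568 CPM in rescue, and in epithelial cells, at 21723 and 11239 CPM.

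Genes of the monocyte list stood higher in the rescue library. In the Fn1 cells 8 of 11 were called higher and 1 lower (median log2 ratio 1.28), in all members 10 of 14 and none (median 1.34), and in the cells with Xist 5 of 10 and 1 (median 1.03). Plac8, abundant in blood monocytes, was at 119.6 CPM (98.9 to 143) and 671 CPM (572 to 781), 5.61-fold higher (4.40 to 7.17), and at 117, 1128 and 511 CPM in the KO cells with Xist and the rescue cells with Xist and with Y-linked UMIs. In the rescue cells with Xist 1 cell held 51.6% of the Plac8 UMIs, and without it the level was 637 CPM (466 to 850). In those with Y-linked UMIs 1 cell held 84.6%, and without it the level was 86.2 CPM (41.3 to 159). Ly6c2, the classical monocyte marker, was found in 1 of 65 KO and 4 of 16 rescue Fn1 cells, with ratio 147 (24.8 to 5965) on 1 KO UMI. S100a4, a calcium-binding protein of motile cells, was at 919.99 CPM (861 to 982) and 2142 CPM (1963 to 2332), 2.33-fold higher (2.09 to 2.59). Vcan, versican, was at 81.8 CPM (64.8 to 102) and 187 CPM (137 to 249), 2.29-fold higher (1.55 to 3.33). Ccr2, the receptor by which monocytes leave the marrow, was picked after its values were seen: it was at 124 CPM (103 to 148) in the KO cells, with a UMI in 26 of 65, and 479.5 CPM (397 to 574) in the rescue cells, with a UMI in 14 of 16, 3.88-fold higher (2.98 to 5.04). Chil3, a chitinase-like protein, was not called, at 890.3 and 1215 CPM.

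Chemokines were called higher in 8 of 17 genes and lower in 1 in the Fn1 cells (median 0.86), in 8 and 3 of 17 in all members (median 0.78), and in 7 and none of 17 in the cells with Xist (median 0.82). Ccl6, a CC chemokine of macrophages, was at 2408 CPM (2312 to 2508) in the KO cells, with a UMI in 64 of 65, and 7595 CPM (7255 to 7947) in the rescue cells, with a UMI in 15 of 16, 3.15-fold higher (2.97 to 3.35), and at 2449.9, 7147 and 7630.4 CPM in the KO cells with Xist and the rescue cells with Xist and with Y-linked UMIs. The difference was present in both kinds of rescue cell. Among C1q-arm cells with at least 1% MHC class II, with or without Fn1, Ccl6 ran the other way with a log2 ratio of -3.08. These were 15 rescue and 11 KO cells, and the 4 KO cells that also held Fn1 gave 81.1% of the KO UMIs. Ccl24, an eosinophil attractant, was at 41.9 CPM (30.1 to 56.9) and 752 CPM (647 to 868), 17.9-fold higher (12.7 to 25.8), with 63.2% of the rescue UMIs in 1 cell. It was at 83.1 (33.4 to 171) CPM in the rescue cells with Xist against 42.9 (30.8 to 58.2) CPM in the KO cells with Xist, and at 1384 (1187 to 1605) CPM in the rescue cells with Y-linked UMIs. All 7 Ccl24 UMIs of the rescue cells with Xist were in 1 cell. Cxcl3, a neutrophil attractant, was at 20.4 CPM (12.5 to 31.6) and 252 CPM (193 to 323), with a UMI in 4 of 65 and 4 of 16 cells. Cxcl2, of the same family, was at 4127 and 5746 CPM, and Ccl9 at 1663 and 2979 CPM, neither called. Cxcl14, named because it differed between KO and control members, ran the other way, at 364 CPM (327 to 404) and 114 CPM (75.6 to 164), 3.20-fold lower (2.18 to 4.88).

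Cytokines moved in both directions, with 3 of 25 called higher and 5 lower in the Fn1 cells (median 0.13), 5 of 26 in each direction in all members (median -0.03), and 2 of 25 in each direction in the cells with Xist (median -0.13, and 0.06 with genes at 0 UMIs set at the limit a 0 count allows). Il1b, interleukin 1 beta, was at 815 CPM (759 to 873) in the KO cells, with a UMI in 33 of 65, and 2243 CPM (2059.9 to 2438) in the rescue cells, with a UMI in 14 of 16, 2.75-fold higher (2.47 to 3.07), and at 2218 CPM (1759 to 2761) in the 3 control cells. It was at 814, 1983 and 1982 CPM in the KO cells with Xist and the rescue cells with Xist and with Y-linked UMIs. Il6 was at 42.9 CPM (30.9 to 58.0) in the KO cells, with a UMI in 8 of 65, and 646 CPM (549.6 to 755) in the rescue cells, with a UMI in 8 of 16, 15-fold higher (10.7 to 21.7), with 40.3% of the rescue UMIs in 1 cell. It was detected in 0 of 6 rescue cells with Xist and 6 of 7 with Y-linked UMIs, so the higher Il6 level lay in cells of the second kind. Tnf was not called, at 866 and 1146 CPM in KO and rescue and 4575 CPM in the 3 control cells. Saa3, an acute-phase serum amyloid of macrophages, was outside the lists named here and among the genes that differed most between all members of the control and the other libraries. It was at 1553 CPM (1476 to 1633) in the KO cells, with a UMI in 38 of 65, and 512 CPM (427 to 609.6) in the rescue cells, with a UMI in 4 of 16, 3.03-fold lower (2.53 to 3.67), with 68.3% of the rescue UMIs in 1 cell.

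Interferon response genes were called higher in 7 of 11 and lower in none in the Fn1 cells (median 1.3), in 10 and none of 13 in all members (median 1.24), and in 4 and 1 of 9 in the cells with Xist (median 0.93). Ifitm3, a membrane protein that restricts viral entry, was at 1076 CPM (1012 to 1143) in the KO cells, with a UMI in 60 of 65, and 4547 CPM (4285 to 4822) in the rescue cells, with a UMI in 16 of 16, 4.22-fold higher (3.88 to 4.6), and at 1092, 5354 and 4028 CPM in the KO cells with Xist and the rescue cells with Xist and with Y-linked UMIs. Ifi27l2a, an interferon-induced protein, was at 79.7 CPM (63.0 to 99.5) and 772 CPM (666 to 890.04), 9.68-fold higher (7.40 to 12.8). It was at 2066 (1770.1 to 2396) CPM in the rescue cells with Xist and 110.1 (60.2 to 185) CPM in those with Y-linked UMIs, so it was highest in the former. Ly6e, Bst2 (tetherin) and Psmb8, a subunit of the immunoproteasome, were at 158, 100.2 and 119 CPM in KO and 569, 244 and 325 CPM in rescue Fn1 cells, all called higher.

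**Figure D5:**
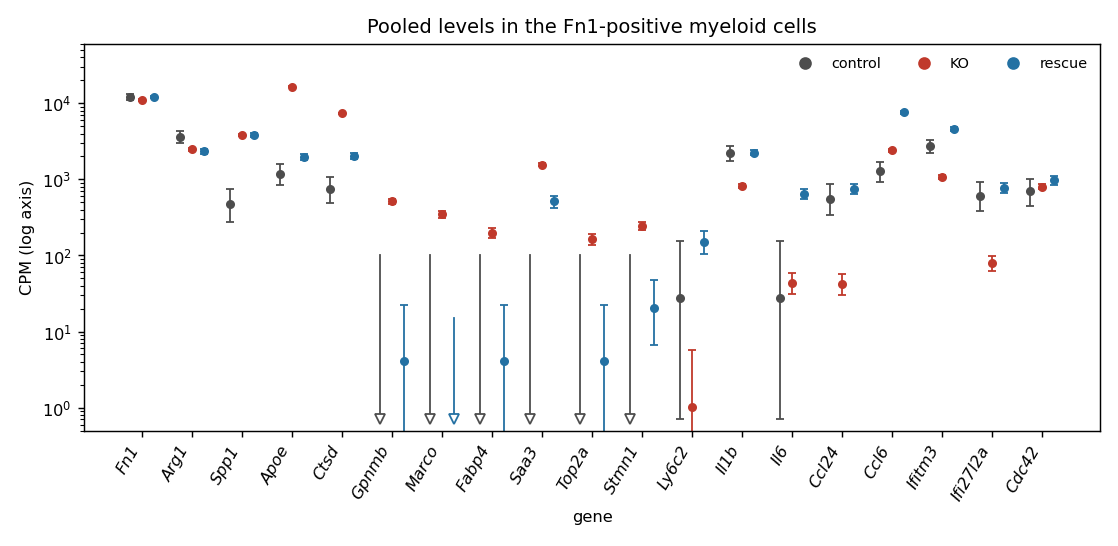
Pooled CPM with exact Poisson 95% intervals on a log axis for named genes in the Fn1 cells of the control (3 cells), KO (65) and rescue (16) libraries; open triangles at the foot of a line mark a count of 0, and the line reaches up to the upper bound of its interval. Apoe, Ctsd and Gpnmb lie lower in rescue than in KO cells, while Ccl6, Ifitm3 and Il1b lie higher, for example Apoe at 1975 against 16476 CPM.

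Proliferation genes were carried by KO cells. Of 19 cell cycle genes, 15 were called lower in rescue Fn1 cells and none higher (median -2.56), 15 and none in all members (median -1.96), and 11 and none in the cells with Xist (median -2.59). With genes at 0 in one library set at the limit a 0 count allows, the medians were -2.23, -2.63 and -1.04. Mki67, which encodes the proliferation antigen Ki-67, was found in 21 of 65 KO, 1 of 16 rescue and 2 of 3 control Fn1 cells, at 177 CPM (151 to 205), 4.06 CPM (0.103 to 22.6) and 194 CPM (78.0 to 399.9). The rescue level rests on 1 UMI, and the ratio was 43.5-fold lower (7.71 to 1729). Top2a, a topoisomerase of dividing cells, was found in 12 of 65 KO and 1 of 16 rescue cells, and Stmn1, a microtubule regulator, in 19 of 65 and 4 of 16. Tubb5, a tubulin that is not limited to dividing cells, was not called, at 480.4 and 520.2 CPM. Most KO Fn1 cells had no Mki67 UMI, so these transcripts came from a minority of them. T cells of the rescue library also had less Mki67 than KO T cells, 71.6 against 161 CPM.

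Immediate early genes, which tissue dissociation can induce, were called higher in 10 of 21 and lower in none in the rescue Fn1 cells (median 0.85), in 3 and none in all members (median 0.58), and in 4 and none in the cells with Xist (median 0.52). Dusp1, a phosphatase of MAP kinases, was at 591 CPM (544 to 641) and 2093 CPM (1916 to 2282), 3.54-fold higher (3.14 to 4.0), and Zfp36, which destabilises cytokine mRNAs, at 681 CPM (630.1 to 735) and 1695 CPM (1536 to 1865), 2.49-fold higher (2.20 to 2.82). In T cells Dusp1 was at 259, 173 and 427 CPM and Zfp36 at 87.3, 46.2 and 132 CPM in the control, KO and rescue libraries, so both were higher in rescue than in KO T cells too. Their part in the chemokine and cytokine differences was not tested. The MHC class II and costimulation list had 1 of 12 called higher and 2 lower in the Fn1 cells, a class defined by low MHC class II, and 0 and 2 of 12 in all members.

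The calls named above were recomputed without the cell that held most UMIs of the gene in each library, and each kept its direction, with C1qa at a log2 ratio of -2.73, Saa3 at -2.63, Ccl24 at 2.84 and Il6 at 3.35. Some genes that differed between libraries in the members differed in the same way in T cells. The gene model Gm8730, a ribosomal protein copy, was at 819, 660.01 and 13.3 CPM in control, KO and rescue members and 887, 1008 and 16.9 CPM in T cells, and Tpm3-rs7 at 0, 149.8 and 3.33 CPM and 3.55, 75.2 and 3.34 CPM. The control and KO files were made with another Cell Ranger version than the rescue file. Gm8730 divided the libraries in that way, whereas Tpm3-rs7 differed between control and KO, files of the same version. Near-identical gene copies can be counted differently, so these genes are uncertain and their source was not tested. Reg3b and Reg3g, antimicrobial lectins of the epithelium, were at 0, 37.7 and 229 CPM and 0, 12 and 156 CPM in members and at 11.3, 702 and 1639.5 CPM and 3.36, 179 and 1074 CPM in T cells.

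The comparisons with the control rest on 11 cells. KO over control called 4.84% of 6176 genes higher and 6.75% lower, with a median log2 ratio of 0.27 over all genes, and rescue over control 10.3% of 2229 higher and 7.99% lower, with a median of 0.22. With the same weight for each cell, genes were counted on the 2-fold rule alone, without an interval, so those counts are not calls. KO over control then had 2955 genes higher and 705 lower, against 299 and 417 called. Rescue over control had 611 and 251, against 229 and 178 called. The control library's 4 deep cells hold 82.6% of its UMIs in the pooled weighting. Lipid handling genes were called higher in KO in 13 of 18 and lower in none (median 1.68), lysosomal genes in 15 and none of 29 (median 1.43), and complement genes in 9 and none of 14 (median 1.71, and 1.54 with genes absent from the control set at the limit a 0 count allows). Apoe was at 1578 (1289 to 1912), 16071 (15842 to 16303) and 2959 (2768 to 3160.4) CPM in control, KO and rescue members, 10.2-fold higher (8.40 to 12.5) in KO than in control. Ctsd was at 819 (616 to 1069), 6350.1 (6206 to 6496) and 1736 (1590.01 to 1891) CPM, 7.75-fold higher (5.93 to 10.3). The control level of Apoe rests on 104 UMIs in 7 cells, and that of Ctsd on 54 in 5 cells. Lyz2-only cells held 57480 of the 65906 control UMIs. In the 6 control C1q-arm cells Apoe was at 7358 (5641 to 9433) CPM, above the pooled control level. The control level of Apoe and the fold against it therefore depend on which cells were pooled.

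C1q levels depended on which cells were pooled. C1qa was at 668 (485 to 896), 2129.8 (2047 to 2215) and 1087 (973 to 1212) CPM, 3.19-fold higher (2.37 to 4.40) in KO than in control over all members. Within the C1q arm the log2 ratio turned to -0.90, and with every cell weighing the same it was -0.47. In the control library the Lyz2-only cells held 57480 of the 65906 UMIs and 1 C1q UMI. Spp1 was at 258 (150.3 to 413), 3355 (3251 to 3462) and 3152 (2955 to 3359) CPM, lowest in the control, while the KO and rescue intervals overlapped. In the control all of its 17 UMIs came from 1 cell. Fn1, at 6661 (6052 to 7314), 9474 (9298 to 9652) and 9846 (9494 to 10207) CPM, and Arg1, at 1988 (1662 to 2359), 2088 (2006 to 2172) and 1909 (1756 to 2071) CPM, were not called between KO and control. The control UMIs of both came from Lyz2-only cells, and the 6 control C1q-arm cells had 0. In the KO C1q arm 54 of 64 cells held Fn1 and 53 held Arg1. The median depth of C1q-arm cells was 1222 UMIs in the control and 14869 in the KO library.

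The MHC class II list was called lower in KO than control in 8 of 12 and higher in 1 (median -1.53), interferon response genes in 5 and none of 11 (median -1.03), cytokines in 8 of 27 with 1 higher, chemokines in 7 of 17 with 3 higher and monocyte genes in 6 of 12 with 3 higher. MHC class II cells were 7 of the 11 control and 12 of the 91 KO members. Within Fn1 cells, a class defined by low MHC class II, the log2 ratios were 1.18 for Cd74, 2.26 for H2-Aa, 2.38 for H2-Ab1 and 1.70 for H2-Eb1. They compare 65 KO with 3 control cells, and those 3 held 3 Cd74 UMIs and 0 H2-Aa UMIs in 36067. These ratios lean on the pseudocount, so whether the direction turned there cannot be told. Cd74 was at 10773 (9995 to 11595), 2485 (2396 to 2577) and 3515 (3306 to 3733) CPM and H2-Aa at 3475 (3039 to 3955), 754 (705 to 806) and 891 (788 to 1004) CPM. In the control library 1 cell of 18384 UMIs gave 77.3% of the H2-Aa and 65.4% of the Cd74 UMIs. Without the deepest member of each library the H2-Aa log2 ratio moved from -2.19 to -0.48. Ccl4, at 2625 (2248 to 3047), 320.2 (289 to 354) and 479 (404 to 564) CPM, drew 79.8% of its control UMIs from 1 cell, and Cxcl10, at 895 (681 to 1155), 51.4 (39.2 to 66.1) and 116 (81.1 to 162) CPM, all of them. Il22ra2 (29 UMIs) and Serpinb9 (32 UMIs) were likewise found in 1 control cell. Tnf was at 2504 (2136 to 2916), 847 (796 to 902) and 1014 (904 to 1135) CPM, 2.95-fold lower (2.49 to 3.49) in KO than control, with 76.4% of the control UMIs in 1 cell, and Il1b at 2716 (2333 to 3144), 1162 (1101 to 1225) and 2364 (2194 to 2545) CPM, 2.34-fold lower (1.99 to 2.73). Proliferation genes were called higher in KO in 8 of 19 and lower in none, with a median of 2.24 that falls to 0.58 when genes absent from the control are set at the limit a 0 count allows.

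Between rescue and control, monocyte genes were called higher in 7 of 12 and lower in 2, dissociation genes in 8 and 1 of 19, complement genes in 5 and 0 of 10, and lysosomal genes in 2 and 0 of 23. The MHC class II list was called lower in 6 of 10 and higher in none, and without the deepest member of each library the Cd74 log2 ratio moved from -1.61 to -0.50. Ccl6 was at 713 (524 to 948), 2072 (1991 to 2157) and 6271 (5991 to 6561) CPM, 8.79-fold higher (6.59 to 12) in rescue than in control and 3.03-fold higher (2.85 to 3.22) than in KO. Ifitm3 was at 1760.1 (1454 to 2111), 1010.1 (953 to 1069) and 4226 (3997 to 4465) CPM, 2.40-fold higher (1.98 to 2.93) than in control. The control, KO and rescue comparisons share libraries, so their values are set side by side and not counted as separate evidence.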

How the data were processed

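In all, 3 libraries (10x Genomics 3' version 3) of dissociated mouse crypts were analysed, 1 per genotype. The deposited values are raw UMI counts per gene and barcode in filtered matrices that the authors made with Cell Ranger, version 3.0.2 for the control and KO and 3.1.0 for the rescue library per the file headers, whereas the submitters' processing notes name version 1.3.0. No build or annotation is named in the sources used here. Of 28692 gene IDs, 28339 were found in GENCODE vM21, which gave the coordinates on GRCm38.

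From the counts, cells were kept at 500 genes, 1000 UMIs and at most 20% mitochondrial UMIs, and members were chosen by the rule stated at the opening. UMIs were summed per library and group and divided by the group's total (CPM, per 1000000 UMIs). Log2 ratios used a pseudocount of 10 CPM. Intervals are 95%: Poisson for levels, Clopper-Pearson for shares and conditional binomial for ratios, all exact and covering counting error only. Genes with at least 20 UMIs were compared, in 1 of the 2 libraries or, against T cells, over both groups. A lower limit against 0 UMIs takes 3 UMIs over the group.

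Named genes were the rule genes, Apoe, the targeted genes and Olfm4, up to 6 genes of highest CPM per list of 29 lists with defining markers at 0, the 20 with the highest smallest ratio over T cells, and the 8 highest and 8 lowest called genes of at least 100 CPM per comparison. Mitochondrial, ribosomal protein, sex-linked, immunoglobulin and alpha-defensin genes were left out of the ranked names, and some items the rule names are not reported here. Members, lists and rules were chosen with earlier results of these data known, and the MHC class II, Fn1 and sex-linked divisions, their values by arm or without the richest cell, and the shares without a mitochondrial limit after seeing the data.

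No doublet caller was run. The rule leaves out cells with Cd3e or with 5 or more Epcam UMIs, and a stricter set without Epcam, Cd3d and Cd3g UMIs was tried. Other alternatives were stricter or looser filters, thinning to 1000 UMIs, equal weight per cell and subsets of members. Recovery of known folds by the ratio step was checked on simulated counts. Python 3.11.15, numpy 2.4.6, pandas 2.3.3 and scipy 1.17.1 were used. Promoters came from RefSeq (GRCm38.p6).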

Additional observations from a re-analysis of the deposited data

Results flagged for a closer look

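In the KO library 20 cells met every condition of the rule except the mitochondrial limit, with over 20% mitochondrial UMIs, and in the rescue library 8 did, whereas the control library had 0. These cells are outside the comparisons above. The 20 KO cells had a median of 1448.5 UMIs and 27.9% mitochondrial UMIs, all 20 met the C1q condition, 16 were MHC class II cells and 1 was an Fn1 cell. The 8 rescue cells had medians of 1569.5 UMIs and 26.6%, all 8 met the C1q condition and 6 were MHC class II cells. The limit therefore left out more MHC class II cells than it kept in the KO library, where 12 were counted. Up to 30% mitochondrial UMIs, 14 of the KO and 7 of the rescue cells would enter.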

How the results depend on the processing

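No paired analysis was possible because each genotype is 1 library. The share of members moved to 0.342% in the control and 1.3% in the rescue library with at least 2000 UMIs, and to 3.14% in the KO and 1.32% in the rescue library with the C1q arm alone. At most 10% mitochondrial UMIs gave 6.79% and 2.92% in KO and rescue, and at most 50% gave 3.40% in KO. Requiring no Epcam UMI gave 2.16% in KO. The order of the libraries was the same in each of these.

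Counts of called genes moved most. With equal weight per cell, genes were counted on the 2-fold rule alone, without an interval, so part of that change can come from the dropped interval. Against T cells they were 7296 in the control and 6122 in the rescue library (1358 and 2849 called). Between libraries they were 3660 for KO over control (716), 862 for rescue over control (407) and 2093 for rescue over KO (799). Thinning gave 75, 31 and 116 in the latter 3 comparisons. At least 50 UMIs gave 2136 in KO against T cells (3263), 170 for rescue over control and 462 for rescue over KO. The C1q arm gave 236 for KO over control and 146 for rescue over control, and members without Epcam, Cd3d and Cd3g UMIs 394 and 205. Among alternatives chosen after seeing the data, C1q-arm cells with at least 1% MHC class II, with or without Fn1, gave 120, 10 and 206. In the KO library 4 of these 11 cells also held Fn1 and gave 81.1% of the UMIs. Fn1 cells with Xist gave 492 for rescue over KO. Fewer cells, UMIs or genes entered most of these.

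Over all alternatives, 219 of 293 log2 ratios of named genes counted as unchanged for KO over control, 161 of 229 for rescue over control and 261 of 337 for rescue over KO. Called genes counted when direction and call were kept, and other genes when the sign was kept within a fixed fold limit. Among called genes 16, 2 and 5 values reversed. For KO over control, 4 alternatives were the C1q arm, its cells with at least 1% MHC class II with or without Fn1, thinning and equal weight. In that order C1qa gave -0.90, -0.84, -0.39 and -0.47, C1qb -1.0, -0.51, -0.88 and -0.85, and C1qc -0.83, -0.65, -0.71 and -0.57. In Fn1 cells alone, KO over control was 1.18 for Cd74, 2.26 for H2-Aa, 2.38 for H2-Ab1 and 1.70 for H2-Eb1, and rescue over control 2.10 for Cd74. The 3 control Fn1 cells held 3 Cd74 UMIs and 0 H2-Aa UMIs, so the direction in these cells cannot be told. Thinning gave -0.33 for Ifi27l2a in rescue over control. For rescue over KO, C1qc gave 0.39 in the same C1q-arm cells with at least 1% MHC class II, 0.15 with thinning and 0.0044 with equal weight. Ccl6 gave -3.08 in those C1q-arm cells, and Il6 gave -2.43 in Fn1 cells with Xist. The cause of these reversals was not tested. List medians kept their sign and stayed within that fold limit in 84 of 118, 74 of 102 and 104 of 130 values. The control members' 65906 UMIs limit each comparison with the control.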
